A study of Mus musculus with 3 samples.

Results

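Sfrp2-high fibroblasts of the embryonic jaw joint were described here from a single-cell RNA library of E16.5 mandibular condyles. They were 551 of 4562 kept cells, or 12.1% (exact 95% interval 11.1 to 13.1), and the other 4011 kept cells of the library were the comparison. A cell was kept with at least 500 detected genes and at most 10% of its UMIs (unique molecular identifiers, each marking 1 captured transcript) from mitochondrial genes. A kept cell counted as Sfrp2-high with at least 5 Sfrp2 UMIs and fewer than 3 Col9a1 UMIs per 10000 UMIs of that cell, and with no UMI of the proliferation genes Mki67 and Top2a, of the leukocyte gene Ptprc or of the endothelial gene Pecam1. The other kept cells thus include 308 cells that met the Sfrp2 and Col9a1 limits but had a UMI of Mki67 or Top2a. The levels of these 6 genes chose the cells and are given as a description only.

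The series holds 3 libraries of wild-type C57BL6 condylar cartilage, at E16.5, when the superior joint cavity forms, at P0 (birth), when the joint is first used, and at 13 weeks (13w, adult). No genotype, allele or treatment separated them. Tissue of 7 to 20 mice was pooled for each library, digested with collagenase and dispase, and sorted for live cells by Calcein and DAPI, so that cells that were not released by the digestion are outside the data. There is 1 library for each stage and none has a replicate, so no difference below has a test, and every interval covers counting error only. The deposited libraries held 5458, 4853 and 8899 barcodes with 103827875, 98486931 and 115836876 UMIs at E16.5, P0 and 13w, of which 4562, 3999 and 8028 barcodes were kept. Between any 2 libraries, 8 to 14 kept barcodes were the same.

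Secreted frizzled-related protein 2, the product of Sfrp2, is a soluble protein that binds Wnt ligands outside the cell and can modulate Wnt signalling. Fibroblasts of the joint periphery make the fibrous tissue of capsule, ligament and the cover of the condyle, with fibrillar collagens, elastic fibres and small proteoglycans, while chondrocytes below them make a matrix of type II collagen and aggrecan. Col9a1, the gene by which cartilage cells were left out, encodes a chain of the type IX collagen that coats cartilage fibrils.

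Promoters are shown of genes that were higher, summed over the Sfrp2-high cells, than in the other kept cells. For Sfrp2 this follows from the rule. The genes are the given markers that had a promoter entry, and Dpt, which had the largest ratio among the genes ranked below at 100 CPM or more. Col14a1 and Mfap4 had no entry. Each promoter is the 300 bases from 250 before to 50 after the start of the gene in RefSeq on mouse build GRCm38.p6. They are Sfrp2 (chr3:83766071-83766370, plus strand), Egfl6 (chrX:166585667-166585966, minus strand), Cxcl12 (chr6:117168285-117168584, plus strand) and Dpt (chr1:164796413-164796712, plus strand). Capitals mark matches on either strand to 4 promoter motifs. They are TATAAA of the core promoter, GGGCGG bound by Sp factors, CTTTGAT bound by TCF/LEF factors and CCAAT bound by NF-Y.
Sfrp2: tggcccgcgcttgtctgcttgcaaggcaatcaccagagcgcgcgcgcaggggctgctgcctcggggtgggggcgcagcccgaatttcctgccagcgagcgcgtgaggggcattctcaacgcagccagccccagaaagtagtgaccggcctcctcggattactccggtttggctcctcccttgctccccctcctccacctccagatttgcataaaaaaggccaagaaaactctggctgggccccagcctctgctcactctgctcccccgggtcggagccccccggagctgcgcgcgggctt
Egfl6: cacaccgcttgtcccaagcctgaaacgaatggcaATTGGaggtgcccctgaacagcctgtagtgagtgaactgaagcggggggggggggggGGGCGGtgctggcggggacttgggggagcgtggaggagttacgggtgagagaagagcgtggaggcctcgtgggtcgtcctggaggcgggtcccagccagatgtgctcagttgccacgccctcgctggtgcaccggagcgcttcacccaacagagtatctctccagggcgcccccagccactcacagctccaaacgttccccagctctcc
Cxcl12: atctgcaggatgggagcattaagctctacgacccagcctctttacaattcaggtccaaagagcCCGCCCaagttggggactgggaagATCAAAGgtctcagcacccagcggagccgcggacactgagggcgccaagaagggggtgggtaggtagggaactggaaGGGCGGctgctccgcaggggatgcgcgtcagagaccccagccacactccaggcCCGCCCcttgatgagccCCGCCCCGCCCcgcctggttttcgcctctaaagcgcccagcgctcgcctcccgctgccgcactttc
Dpt: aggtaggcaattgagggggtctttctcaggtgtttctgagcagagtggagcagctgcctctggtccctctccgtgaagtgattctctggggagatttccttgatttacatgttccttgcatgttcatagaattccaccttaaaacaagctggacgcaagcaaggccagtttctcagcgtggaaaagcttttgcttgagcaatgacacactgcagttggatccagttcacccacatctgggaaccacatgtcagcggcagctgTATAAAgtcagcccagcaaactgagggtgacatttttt
TATAAA was in the Dpt window only, GGGCGG in those of Egfl6 and Cxcl12, CTTTGAT in that of Cxcl12 and CCAAT in that of Egfl6, and none of the 4 motifs was in that of Sfrp2. The TATAAA of Dpt lies after the start of the gene, at bases 263 to 268 of the window, past the 250 that precede the start. In Cxcl12, 2 of the 5 GGGCGG matches overlap by a base and print as a single run of capitals. Of all 32851 promoters in the table, 13.6% hold TATAAA, 35.7% GGGCGG, 3.73% CTTTGAT and 37.4% CCAAT. Of the 15 ranked genes with the largest ratios below, 8 are in the table, of which 2, 6, 0 and 3 hold these motifs in the same order. A match is a run of letters and not a measured binding site.

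The Sfrp2-high cells expressed the fibroblast genes by which they are labelled. Sfrp2 itself had a median of 22.9 UMIs per 10000 in them, from 5.03 to 116, with quartiles of 13.1 and 36.2, and 10 cells passed with a single Sfrp2 UMI. No Col9a1 UMI was seen in 477 of the cells (86.6%). Of 10 fibroblast markers, 9 reached 10 CPM (raw UMIs summed over the cells and scaled to a common total, as for CPM throughout) and Ly6a had no UMI. These 10 genes summed to 14272 CPM in the Sfrp2-high cells and 4717 CPM in the other kept cells. The 10 chondrocyte markers summed to 579 CPM in the Sfrp2-high cells and 10082 CPM in the other cells, and the 8 osteoblast markers to 58.7 and 1426 CPM. Of the chondrocyte sums, 16.1 and 599 CPM were those of Col9a1, which the rule capped. Of the 10 chondrocyte markers, 8 reached 10 CPM in the Sfrp2-high cells and 10 in the other cells. At least 3 UMIs from 2 or more chondrocyte markers were seen in 403 Sfrp2-high cells (73.1%). The same limit for the fibroblast markers was met by 551 cells (100%).

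Markers of endothelial, immune, muscle, neural and epithelial cells were near 0 in the Sfrp2-high cells, while haemoglobins, some mural genes and Lpl of the adipocyte list were not. In the Sfrp2-high cells the endothelial list summed to 11.96 CPM, with 3 of 7 markers at 0, the macrophage list to 4.53 CPM, the neutrophil list to 4.71 CPM, the skeletal muscle list to 4.71 CPM and the epithelial list to 6.16 CPM, and no gene of these lists reached 10 CPM. Pecam1 of the endothelial list and Ptprc of the macrophage list are at 0 by the rule. The Schwann and neural list summed to 5.98 CPM, with 2 of 6 markers at 0. Erythroid markers summed to 196 CPM in the Sfrp2-high cells, against 332 CPM in the other cells, and mural markers to 96.8 against 298 CPM. The Sfrp2-high cells were shallower than the rest, with a median of 10506 UMIs and 3183 genes against 19772 UMIs and 4320 genes, and their median mitochondrial share was 2.54% against 2.13%. The part of this depth difference in the results below was not tested beyond the thinned values.

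**Figure D1:**
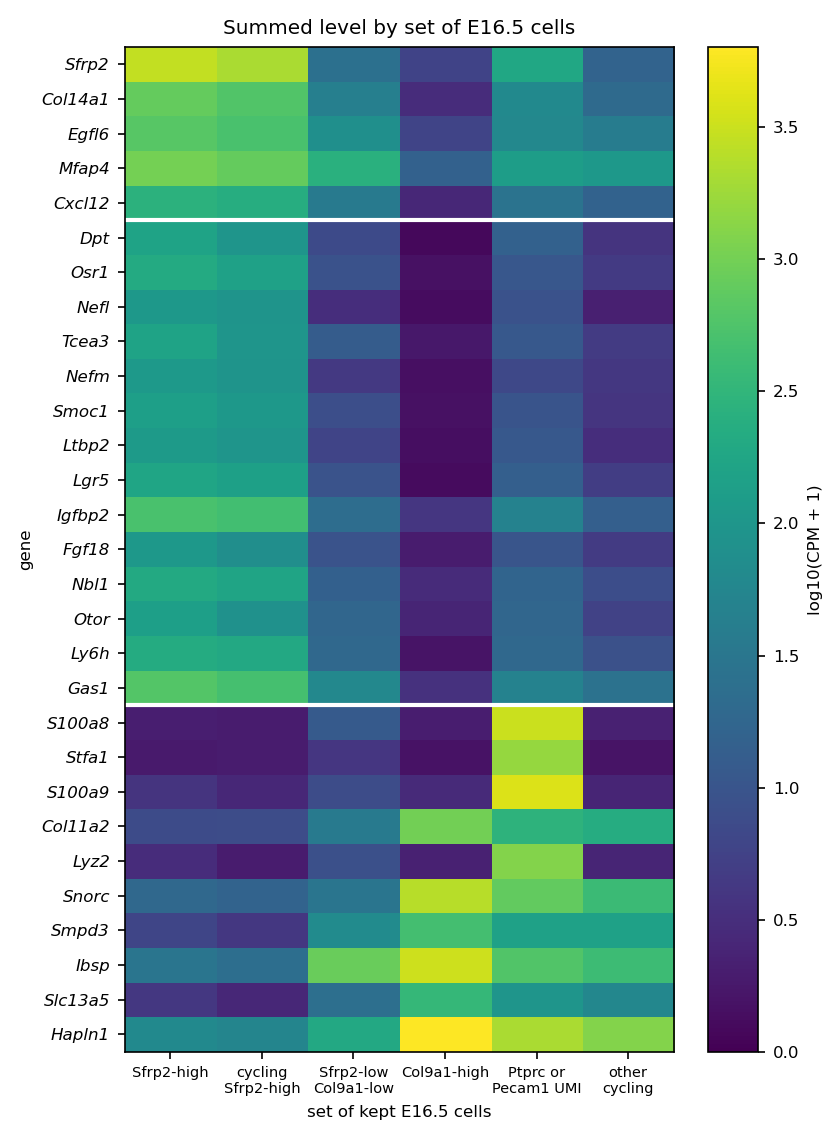
Level of each gene (rows) in 6 sets of kept E16.5 cells (columns), as log10 of CPM + 1 with raw UMIs summed over the cells of a set. The upper block holds the 5 given markers. Of the genes ranked at 100 CPM or more, the middle block holds the others with the largest ratios in Sfrp2-high cells and the lower block those with the smallest. The 2 Sfrp2-high columns resemble each other in the upper blocks, and the blood and cartilage genes of the lower block peak in other columns.

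The marker genes and a set of signalling, matrix and neurofilament genes were higher in the Sfrp2-high cells than in the other kept E16.5 cells. Of 8861 genes measured (at least 10 CPM in the higher set), 1153 or 13.0% were at least 2-fold higher and 784 or 8.85% at least 2-fold lower, with a median log2 ratio of 0.13 over all measured genes. The higher share of these calls was 59.5%. It was 37.7% under TMM scaling and 37.4% under median-of-ratios scaling, which shift the median by -0.33 and -0.34. All 4 markers that the rule did not use were past 2-fold.

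Col14a1, which encodes the fibril-associated collagen XIV, was at 790 CPM in the Sfrp2-high cells and 48.8 CPM in the other cells (log2 ratio 4.02, interval 3.96 to 4.08). Egfl6, a secreted protein with EGF repeats, was at 656 and 60.9 CPM (log2 3.43, 3.37 to 3.49). Mfap4, a microfibril-associated glycoprotein, was at 1009 and 145 CPM (log2 2.80). All 3 encode matrix proteins, and each was detected in most Sfrp2-high cells.

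The chemokine gene Cxcl12 was at 274 CPM in the Sfrp2-high cells and 26.3 CPM in the other cells (log2 3.38, 3.29 to 3.47). Of the 4 markers it was detected in the fewest cells. After each cell was thinned to 5000 UMIs, for which 446 of the 551 Sfrp2-high cells were deep enough, Cxcl12 was detected in 49.6% of Sfrp2-high cells, 11.0% of Sfrp2-low Col9a1-low cells and 0.726% of Col9a1-high cells, against 93.05%, 59.9% and 8.35% for Mfap4. The thinned shares of Col14a1 were 77.6%, 8.46% and 0.726%, and those of Egfl6 82.3%, 23.9% and 3.45%, in the same 3 sets. Col9a1-high cartilage cells served as the set expected to lack these genes, but they were also limited to Sfrp2-low, non-cycling cells. Their low shares thus do not cover Col9a1-high cells with more Sfrp2. The 12 non-cycling Col9a1-high cells that met the Sfrp2 limit were left out of this set. The 5 given markers, Sfrp2 included, summed to 1896 CPM in those 12 cells and 27.6 CPM in this set. Sfrp2 itself gave 1060 of the 1896 CPM. At full depth Col14a1 was seen in 82.9% of Sfrp2-high cells, 11.1% of Sfrp2-low cells and 4% of Col9a1-high cells, whose median depths were 10506, 13601 and 39394 UMIs.

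Dpt, Osr1, Nefl, Tcea3 and Nefm had the 5 largest ratios among ranked genes, in this order. Ranked genes had 100 CPM or more in the higher set, without predicted genes and the other classes left out of the ranking. Some genes outside the ranking had ratios as large, such as Fgf10 and Gm26771, given below. Dpt, which encodes dermatopontin, a small collagen-binding protein of connective tissue, was at 160 CPM in the Sfrp2-high cells and 7.80 CPM in the other cells (log2 4.36, 4.22 to 4.51). The zinc-finger transcription factor gene Osr1, which acts in limb and craniofacial mesenchyme, was at 214 and 10.5 CPM (log2 4.34, 4.22 to 4.47). The neurofilament genes Nefl and Nefm, best known from neurons, were at 107 and 115 CPM in the Sfrp2-high cells, against 5.90 and 6.84 CPM in the other cells. Those other cells include 308 cycling Sfrp2-high Col9a1-low cells, in which Nefl and Nefm were at 92.4 and 91.2 CPM. Of the 741 Dpt UMIs in the other cells, 397 were in these cycling cells. Nefl and Nefm stood beside a Schwann and neural marker list whose highest gene in the Sfrp2-high cells, Elavl3, was at 2.18 CPM. After thinning, Nefl was detected in 22.2% of Sfrp2-high cells, 0.668% of Sfrp2-low cells and 0.181% of Col9a1-high cells, so most Sfrp2-high cells had no Nefl UMI at this depth.

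Several of the other leading genes encode signalling proteins. Lgr5, a receptor for R-spondins in the Wnt pathway, was at 172 CPM in the Sfrp2-high cells and 10.9 CPM in the other cells (log2 3.98). Igfbp2, which binds insulin-like growth factors, was at 522 and 35.0 CPM (log2 3.90), and Fgf18, a growth factor with known roles in skeletal development, at 107 and 7.36 CPM (log2 3.86). Gas1, a membrane co-receptor for hedgehog ligands, was at 608 and 48.0 CPM (log2 3.66), and Nbl1, a secreted BMP antagonist, at 203 and 14.9 CPM (log2 3.77). Smoc1, Ltbp2, Tcea3, Ly6h and Otor completed the 15, at 138, 118, 160, 221 and 137 CPM in the Sfrp2-high cells and 8.26, 7.08, 9.09, 17.0 and 10.5 CPM in the other cells, and 9.79% of the Otor UMIs came from 1 cell. With every cell weighing the same, the 15 log2 ratios lay between 2.74 and 3.40. With cells that had a UMI of Ptprc, Pecam1, Mki67 or Top2a left out of the other cells, they lay between 4.04 and 6.18.

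The ranked genes with the smallest ratios belonged to blood cells and to cartilage and bone. The granulocyte genes S100a8, Stfa1 and S100a9 and the macrophage and granulocyte gene Lyz2 were at 1.09, 0.906, 2.72 and 1.99 CPM in the Sfrp2-high cells, against 255, 129, 328 and 102 CPM in the other cells. With those same cells left out, 3 of these, Stfa1, S100a9 and Lyz2, no longer passed 2-fold, at log2 ratios of -0.79, -0.49 and -0.94. Col11a2, Snorc, Smpd3, Slc13a5 and Hapln1 were at 6.53, 18.3, 5.26, 3.08 and 63.8 CPM in the Sfrp2-high cells and 356, 806, 201, 113 and 2215 CPM in the other cells. These 5 are expressed by chondrocytes, and Hapln1 links aggrecan to hyaluronan. Ibsp, a mineral-binding sialoprotein of bone and hypertrophic cartilage, was at 29.4 and 1102 CPM.

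**Figure D2:**
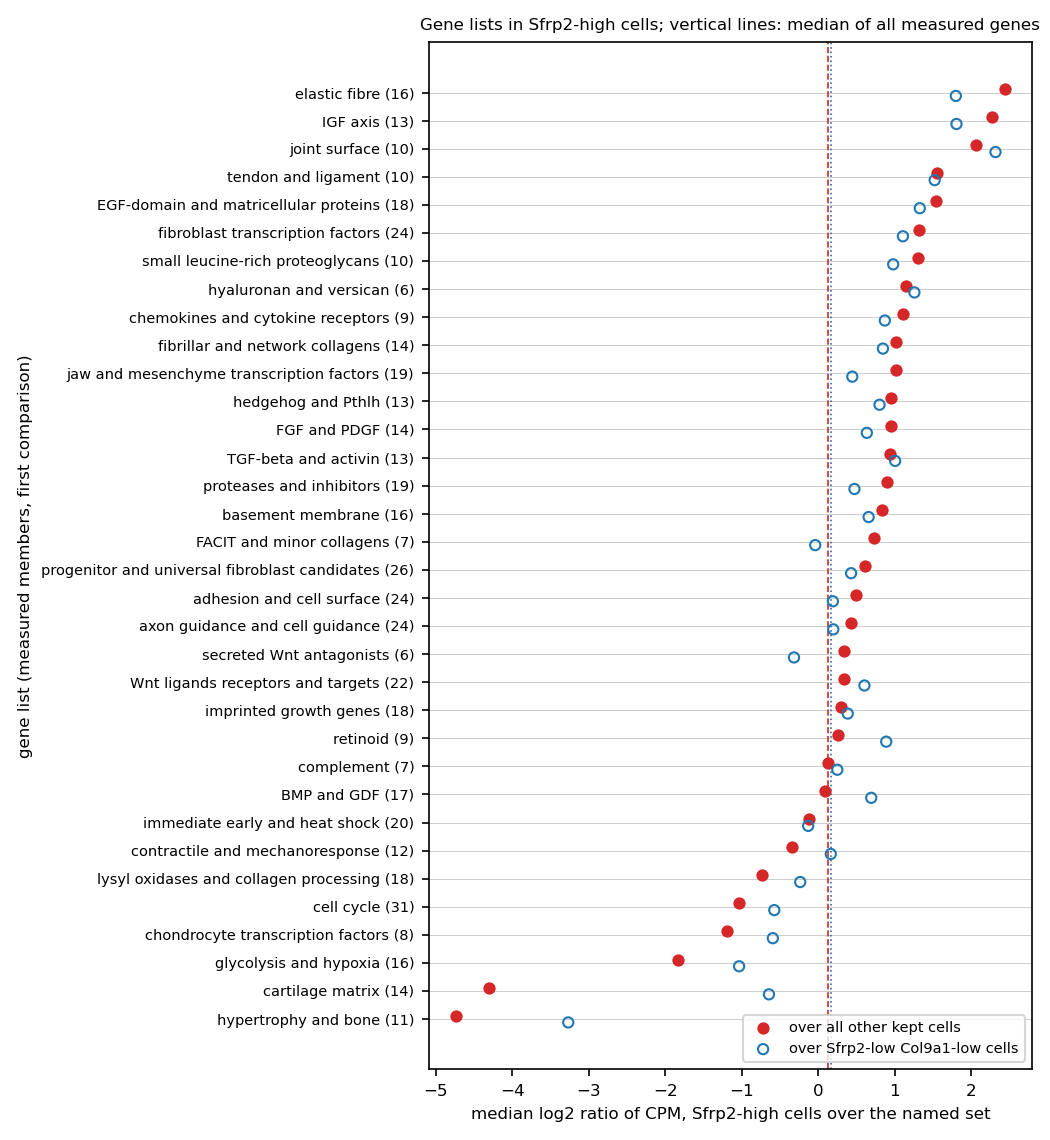
Median log2 ratio of CPM for 34 gene lists (rows), for Sfrp2-high cells over all other kept cells (filled) and over Sfrp2-low Col9a1-low non-cycling cells (open). Vertical lines mark the median of all measured genes in each comparison, 0.13 and 0.17. Among the filled points the elastic fibre list lies at 2.44, the cartilage matrix list at -4.31 and the hypertrophy and bone list at -4.73, and among the open points these lists lie at 1.80, -0.64 and -3.27.

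Elastic fibre genes were the list with the highest median ratio. Of 16 measured, 13 were at least 2-fold higher in the Sfrp2-high cells and none lower, with a median log2 ratio of 2.44, against 13.0% of all genes. Eln, which encodes elastin, was at 640 CPM in the Sfrp2-high cells and 73.0 CPM in the other cells. Fbn1, the fibrillin-1 of microfibrils, was at 273 and 27.2 CPM, and Fbn2, the fibrillin of early microfibrils, at 1094 and 160 CPM. Mfap5 was at 54.6 and 4.37 CPM. The 3 within 2-fold were Efemp2, Emilin1 and Emilin2, at 110, 106 and 25.2 CPM in the Sfrp2-high cells and 106, 121 and 23.4 CPM in the other cells.

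Fibrillar and network collagens were also higher, by less. Of 14 measured, 7 were at least 2-fold higher and none lower (median log2 1.02). Col1a2, Col3a1 and Col8a1 were at 4579, 4448 and 127 CPM in the Sfrp2-high cells, against 1513, 1419 and 15.8 CPM in the other cells. Among 10 small leucine-rich proteoglycans, which bind collagen fibrils, 7 were higher and 3 lower (median 1.31). Ogn was at 654 and 69.3 CPM and Kera at 10.9 and 0.642 CPM, while Prelp was lower, at 8.34 and 100 CPM. Of 18 EGF-domain and matricellular genes, 12 were higher and 4 lower, with Ccn3 at 88.3 and 10.1 CPM and Igfbp7 at 419 and 55.7 CPM. Of 18 genes for collagen crosslinking and processing, 4 were higher and 8 lower (median -0.74), among them the prolyl hydroxylase subunit gene P4ha2 at 89.9 and 346 CPM.

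The growth factor lists differed among themselves. Of 13 genes of the IGF axis, 9 were at least 2-fold higher and none lower (median 2.27), with the ligand Igf1 at 814 CPM in the Sfrp2-high cells and 91.5 CPM in the other cells and the binding proteins Igfbp3 and Igfbp4 at 267 and 1454 CPM, against 26.9 and 187 CPM. Igf2 and H19, imprinted neighbours, were within 2-fold, at 1237 and 1547 CPM in the Sfrp2-high cells and 997 and 2180 CPM in the other cells. Among 14 FGF and PDGF genes, 7 were higher and 2 lower. The ligand genes Fgf10 and Fgf7 were at 28.3 and 12.7 CPM, against 1.505 and 1.34 CPM, and the receptor gene Fgfr3, expressed in chondrocytes, was at 5.26 against 116 CPM. Of 13 TGF-beta and activin genes, 6 were higher and 3 lower, among them the activin-binding Fst at 245 and 28.3 CPM.

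Wnt and hedgehog genes pointed in both directions. Of 22 Wnt ligands, receptors and targets measured, 8 were higher and 5 lower (median 0.34). Wnt16 was at 12.3 CPM in the Sfrp2-high cells and 1.41 CPM in the other cells. The transcription factor genes Lef1 and Tcf7 were at 0.906 and 1.27 CPM, against 22.1 and 29.8 CPM. Of the 6 secreted Wnt antagonists measured beside Sfrp2, Dkk3 and Sfrp1 were higher, at 140 and 97.5 CPM against 25.9 and 34.5 CPM, and Frzb and Wif1 lower, at 3.44 and 17.8 CPM against 65.9 and 183 CPM. Of 13 hedgehog and Pthlh genes, 6 were higher and 3 lower. Pthlh, which encodes the parathyroid hormone-related peptide of the growth-plate loop, was at 100 CPM in the Sfrp2-high cells and 10.1 CPM in the other cells, and the genes for its receptor (Pth1r) and for Indian hedgehog (Ihh) were at 49.5 and 0.906 CPM, against 532 and 66.7 CPM.

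Fibroblast and jaw transcription factors were more often higher than lower, and no chondrocyte factor was higher. Of 24 fibroblast factors, 15 were higher and 2 lower (median 1.32), with Tbx18, Foxp2 and Ebf3 at 64.3, 159 and 84.6 CPM in the Sfrp2-high cells and 5.75, 14.5 and 8.64 CPM in the other cells. Of 19 jaw and mesenchyme factors, 10 were higher and 2 lower, with Osr2 at 19.6 and 1.98 CPM and Nr2f1 at 177 and 27.2 CPM. Of 8 chondrocyte factors, 4 were lower and none higher: Sox9, Sox6, Mef2c and Foxa3 were at 132, 40.8, 61.1 and 0.544 CPM, against 488, 118, 466 and 14.6 CPM. All 14 cartilage matrix genes and all 11 hypertrophy and bone genes measured were at least 2-fold lower, with medians of -4.31 and -4.73, in a comparison whose rule had left out Col9a1-high cells.

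Tendon and joint surface lists were higher too, and energy genes lower. Of 10 tendon and ligament genes, 7 were higher and 1 lower (median 1.56), with the tendon factor Scx at 89.0 CPM in the Sfrp2-high cells and 13.1 CPM in the other cells and Thbs4 at 192 and 28.9 CPM. Of 10 joint surface genes, 6 were higher and none lower, with Abi3bp at 499 and 43.2 CPM and Vcam1 at 65.1 and 8.92 CPM. The lubricin gene Prg4 stayed under the 10 CPM limit, at 2.90 and 0.916 CPM. Of 16 glycolysis and hypoxia genes, 12 were lower and none higher (median -1.84), with Pgk1 at 168 and 947 CPM and Bnip3 at 31.2 and 232 CPM. Of 31 cell cycle genes, 17 were lower and none higher, which the rule itself favours by barring Mki67 and Top2a.

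Progenitor candidates and imprinted genes were also more often higher than lower. Over all measured genes in this comparison 13.0% were higher and 8.85% lower, the shares against which the list counts of this comparison stand. Of 26 progenitor candidates, 11 were higher and 4 lower, with Pi16 at 14.5 CPM in the Sfrp2-high cells and 1.19 CPM in the other cells and the surface enzyme gene Nt5e (CD73) at 4.53 and 58.1 CPM. Of 9 chemokine and cytokine receptor genes, 5 were higher and 1 lower, among them Cxcl14 at 83.6 and 7.58 CPM. Of 18 imprinted growth genes, 7 were higher and 1 lower, with the non-coding RNA genes Meg3 and Rian at 2176 and 291 CPM, against 331 and 50.4 CPM. Of 20 immediate early and heat shock genes, none was higher and 1, Zfp36, was lower, at 22.3 and 50.5 CPM, which is near the share of all genes, and Fos was at 522 and 531 CPM.

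The comparison nearest by the rule was with 1016 Sfrp2-low, Col9a1-low, non-cycling cells of the same library, whose median depth was 13601 UMIs. These cells held markers of several cell types. Their osteoblast, erythroid, mural, muscle and mast cell lists summed to 1179, 598, 215, 124 and 87.4 CPM. In the Sfrp2-high cells these sums were 58.7, 196, 96.8, 4.71 and 7.98 CPM. The fibroblast list was lower in the Sfrp2-low cells, at 6672 against 14272 CPM, as were the tendon and joint surface lists. Of 8602 genes measured, 873 or 10.1% were at least 2-fold higher in the Sfrp2-high cells and 361 or 4.20% lower, with a median of 0.17. The higher share of the calls was 70.7%, against 52.9% under TMM scaling and 51.8% under median-of-ratios scaling (shifts of -0.27 and -0.28). Of the 10 leading genes here, 9 were also among the 15 of the first comparison. Nefl was at 107 CPM in the Sfrp2-high cells and 2.14 CPM in the Sfrp2-low cells (log2 5.65, 5.13 to 6.21), Nefm at 115 and 3.35 CPM (log2 5.10) and Igfbp2 at 522 and 21.8 CPM (log2 4.58). Dpt, Osr1, Ltbp2, Lgr5, Smoc1 and Col14a1 had log2 ratios of 4.70, 4.70, 4.55, 4.36, 4.24 and 4.20. Tm4sf1, a membrane protein also found in endothelium, was at 131 and 7.90 CPM, and in cells with a Ptprc or Pecam1 UMI at 72.0 CPM.

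The 5 named genes lower than in these neighbours were of several kinds. Ibsp was at 29.4 CPM in the Sfrp2-high cells and 872 CPM in the Sfrp2-low cells, where 21.2% of its UMIs came from 1 cell. Wif1 was at 17.8 and 236 CPM, Panx3 at 9.24 and 114 CPM and Ifitm5 at 9.97 and 114 CPM. Foxd2os, a non-coding RNA beside the forkhead gene Foxd2, was at 5.62 and 114 CPM. The list medians were 2.32 for joint surface genes (9 of 10 higher), 1.81 for the IGF axis and 1.80 for elastic fibre genes, and the glycolysis list had 8 of 16 lower and a median of -1.03. The cartilage matrix list, at -4.31 against all other cells, was at -0.64 here, with 5 of 11 lower and 1 higher.

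**Figure D3:**
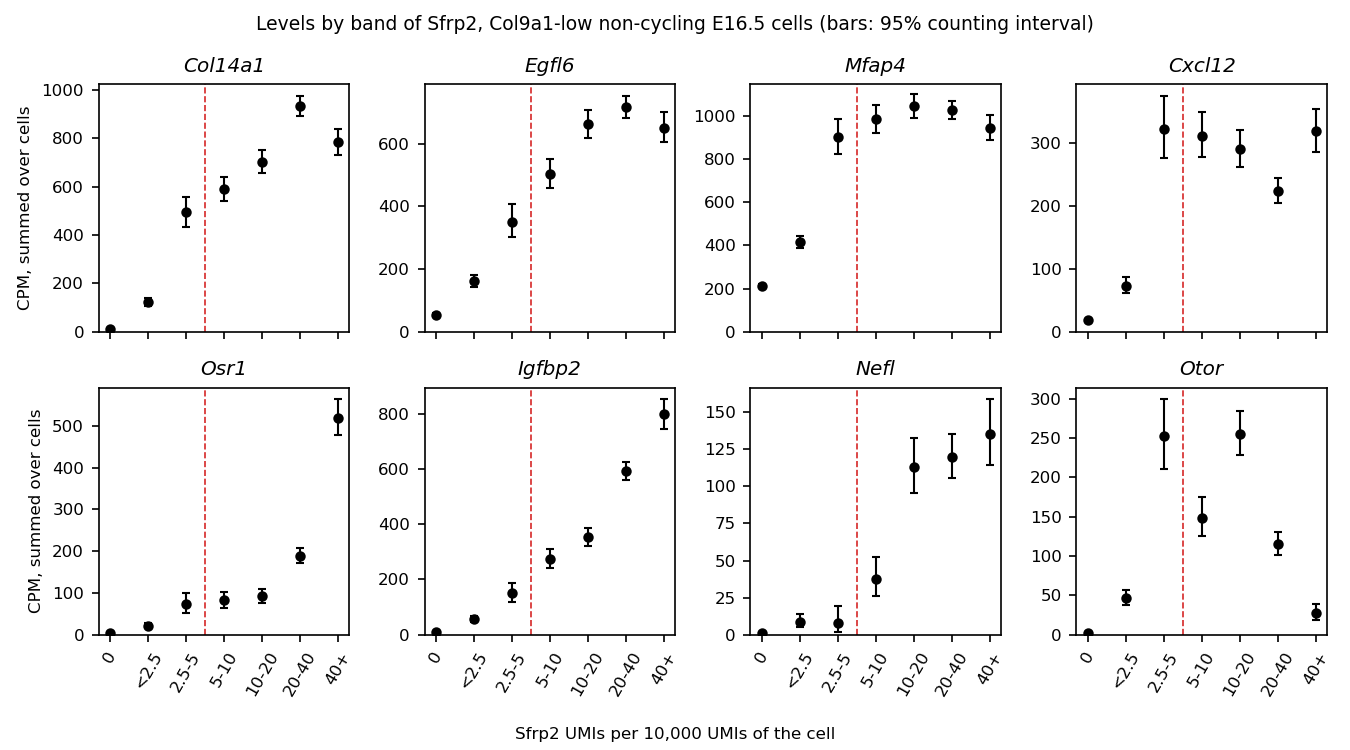
CPM of 8 genes by band of Sfrp2 level among Col9a1-low, non-cycling E16.5 cells, summed over the cells of each band, with 95% counting intervals as bars and the threshold of 5 as a dashed line. Mfap4 and Cxcl12 differ little across the line (904 and 323 CPM just below it, 987 and 312 CPM just above), while Osr1 and Igfbp2 are highest in the band with the most Sfrp2.

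Sfrp2 varied widely among the cells, and other genes followed it in different ways. Just inside the threshold, 96 cells had 5 to 10 Sfrp2 UMIs per 10000, and just outside it 52 cells had 2.5 to 5. Col14a1 was at 590 CPM just inside and 493 CPM just outside, Mfap4 at 987 and 904 CPM, Cxcl12 at 312 and 323 CPM, and Osr1 at 81.9 and 72.7 CPM. Cells at the edge of the rule thus had similar levels of these 4 genes on its 2 sides. Egfl6 was at 505 and 352 CPM, Igfbp2 at 275 and 151 CPM and Nefl at 37.7 and 7.65 CPM. These bands were cut on a gene that the rule used and are a description.

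By band of Sfrp2, Osr1 was highest where Sfrp2 was highest. In bands of 5 to 10, 10 to 20, 20 to 40 and at least 40 Sfrp2 UMIs per 10000, with 96, 135, 205 and 115 cells, Osr1 was at 81.9, 92.5, 188 and 519 CPM. Igfbp2 was at 275, 352, 591 and 798 CPM and Lgr5 at 86.2, 127, 193 and 256 CPM in the same order. Cxcl12 did not follow this order, at 312, 290, 224 and 319 CPM. Otor, which encodes otoraplin, was at 149, 256, 116 and 27.9 CPM, lowest where Sfrp2 was highest. The median depth of the bands lay between 9696 and 10962 UMIs.

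Clustering of the 551 cells alone gave 5 clusters of 196, 145, 125, 43 and 42 cells. The genes that define them are a description, since the same cells were clustered on them. With a resolution of 0.3, 0.8 or after thinning to 5000 UMIs the number of clusters was 4, 7 and 4, and the adjusted Rand index to the partition described here was 0.86, 0.67 and 0.75. Median depth was 10828, 11362, 8545, 10557 and 11328 UMIs in clusters 1 to 5. Each was compared with the other Sfrp2-high cells, and 1.48%, 3.74%, 5.23%, 7.14% and 6.43% of measured genes were at least 2-fold higher in clusters 1 to 5. The share of measured genes lower in a cluster was not computed. Counts of lower genes in the clusters below therefore cannot be set against all genes. No cluster is given a cell type name.

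**Figure D4:**
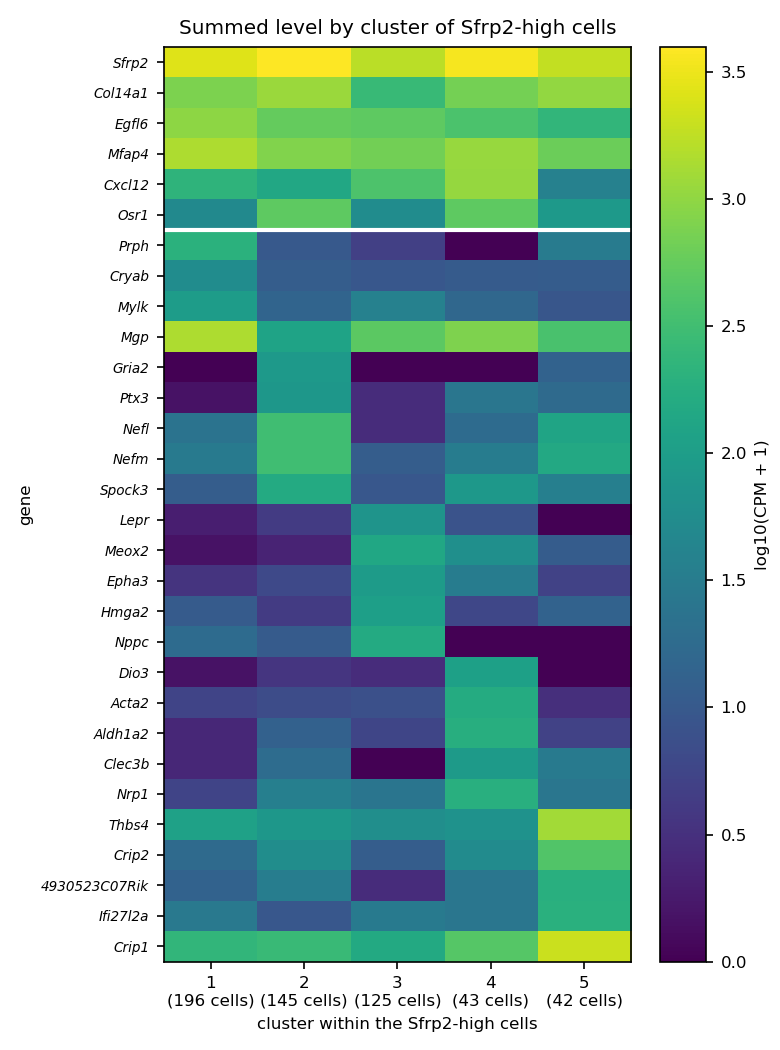
Level of each gene (rows) in the 5 clusters of Sfrp2-high E16.5 cells (columns, with the number of cells), as log10 of CPM + 1 with raw UMIs summed over the cells. The upper block holds the 5 markers and Osr1, and the lower block up to 5 leading genes of each of clusters 1 to 5 in turn, those with the highest levels, without haemoglobin genes. Cxcl12 and Osr1 differ between clusters by more than Mfap4 does.

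Mgp and Prph were among the leading genes of cluster 1. Mgp, an inhibitor of calcification, was at 1420 CPM there and 345 CPM in the other Sfrp2-high cells, and Prph, the intermediate filament gene peripherin, at 199 and 9.43 CPM. The tendon factor genes Scx and Mkx were at 158 and 38.2 CPM, against ranges of 0 to 130 and 10.4 to 26.7 CPM over the other 4 clusters. Of 10 tendon and ligament genes measured there, 2 were at least 2-fold higher and 2 lower, and of 16 BMP and GDF genes 2 were higher and 4 lower. Egfl6, Fgf18 and the BMP antagonist gene Grem1 were at 960, 159 and 37.2 CPM, the highest of the 5 clusters. Haemoglobin genes led this cluster as well, with the 5 erythroid markers summing to 492 CPM against 25.7 CPM, and 19.5% to 29.3% of the UMIs of Hba-a1, Hba-a2, Hbb-bs and Hbb-bt in it came from 1 cell; the part of this in the cluster was not tested.

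Cluster 2 held the neurofilament genes. Nefl and Nefm were at 308 and 310 CPM there, against 29.2 and 38.5 CPM in the other Sfrp2-high cells, and the glutamate receptor gene Gria2 at 84.7 CPM, against 1.51 CPM. Nefl UMIs were seen in 65.5% of its cells at full depth. The same cluster had the elastic fibre genes Eln, Fbln1 and Mfap5 at 1028, 246 and 133 CPM and Osr1 at 498 CPM, close to the 1126, 284, 140 and 510 CPM of cluster 4. The median Sfrp2 level was 32.1 UMIs per 10000 in cluster 2 and 19.1 in cluster 4, so Osr1 did not follow Sfrp2 between these clusters. In cluster 2 Pi16 was at 41.4 CPM. Pi16, a marker of adventitial fibroblasts, was at 0 to 8.22 CPM in the other 4 clusters. Of 17 elastic fibre genes measured there, 6 were at least 2-fold higher and none lower.

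Hedgehog targets, Igf1, small proteoglycans and some skeletal genes were higher in cluster 3. The hedgehog pathway genes Ptch1, Gli1 and Hhip, which hedgehog signalling induces, were at 299, 71.8 and 201 CPM there, against at most 33.2, 19.6 and 52.5 CPM in any other cluster. Igf1 was at 1904 CPM, Aspn at 1721 CPM and Ogn at 1200 CPM, the highest of the 5 clusters, and 6 of 10 small leucine-rich proteoglycans measured were at least 2-fold higher than in the other Sfrp2-high cells. Lepr, the leptin receptor gene, was at 72.8 and 2.24 CPM and Nppc, the C-type natriuretic peptide gene, at 157 and 11.2 CPM. Col14a1 and Dpt were lowest in this cluster, at 265 and 16.1 CPM, and so was Sfrp2, at a median of 14.97 UMIs per 10000. Its cells were also the shallowest. Of 10 cartilage matrix genes measured there, 4 were higher (Col11a1, Acan, Hapln1 and Ucma) and 3 lower, with a summed level of 1120 CPM, against 709 CPM in the other Sfrp2-high cells, and Alpl and Runx2 of the hypertrophy and bone list were higher as well. The part of these skeletal markers in the cluster was not tested.

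Clusters 4 and 5 were small and carried distinct genes. In cluster 4, Dlk1, an imprinted membrane protein of the Notch ligand family, was at 2909 CPM and Cxcl12 at 1052 CPM, against at most 567 and 386 CPM in any other cluster. Aldh1a2, which makes retinoic acid, was at 179 CPM there and 5.68 CPM in the other Sfrp2-high cells, and Dio3, which inactivates thyroid hormone, at 110 and 1.37 CPM. Of 7 mural markers, 5 were measured and 4 were higher (Acta2, Notch3, Kcnj8 and Abcc9). All 7 summed to 307 against 80.0 CPM, with 46.3% of the Acta2 UMIs from 1 cell, and their part in the cluster was not tested. Scx had no UMI in this cluster. In cluster 5, Thbs4, a thrombospondin of tendon, was at 1262 and 88.1 CPM, the LIM protein genes Crip1 and Crip2 at 2023 and 413 CPM against 243 and 30.4 CPM, and Cd34 at 430 CPM, against at most 129 CPM in any other cluster. Of 12 joint surface genes measured there, 5 were higher and 2 lower, with Prg4 at 22.6 CPM, against at most 1.94 CPM in any other cluster.

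The same Sfrp2 and Col9a1 limits were also met by cycling cells. A further 308 cells met the Sfrp2 and Col9a1 limits and had a UMI of Mki67 or Top2a, and their median depth was 13554 UMIs, against 10506 in the non-cycling cells. Of 8814 genes measured, 443 or 5.03% were at least 2-fold higher in the cycling cells and 39 or 0.442% lower. Of 31 cell cycle genes, 21 were higher. The largest ratios were those of mitotic and replication genes, with Hmmr at 205 CPM in cycling and 1.81 CPM in non-cycling cells, Nusap1 at 237 and 2.54 CPM and Ccna2 at 135 and 1.81 CPM. Esco2, with 2 UMIs in the non-cycling cells, had a log2 ratio of 8.51 (6.65 to 11.56). These follow from the choice of Mki67 and Top2a.

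Several genes named above were within 2-fold between cycling and non-cycling cells, while others were lower. Gria2 was at 10.9 CPM in cycling and 24.8 CPM in non-cycling cells, and the small leucine-rich proteoglycan, tendon, minor collagen and Wnt lists each had 1 gene at least 2-fold lower. Over all measured genes 0.442% were lower, and a gene that is on more than 1 list, such as Kera, counts in each. Col14a1 was at 593 CPM in cycling and 790 CPM in non-cycling cells, Cxcl12 at 236 and 274 CPM, Nefl at 92.4 and 107 CPM and Igfbp2 at 452 and 522 CPM. The lowest ratios at 100 CPM or more were those of Mme, Enpp2 and Dpt, with log2 values of -0.88, -0.80 and -0.77, all within 2-fold. Mme encodes the peptidase neprilysin and Enpp2 the lysophosphatidic acid enzyme autotaxin. Thbs4 was higher in the cycling cells, at 291 against 192 CPM, which is also within 2-fold.

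A smaller share of Sfrp2-high than of Sfrp2-low cells carried a proliferation UMI. After thinning to 5000 UMIs, 27.8% (24.5 to 31.2) of Sfrp2-high Col9a1-low cells had a UMI of Mki67 or Top2a, against 43.3% (41.2 to 45.3) of Sfrp2-low Col9a1-low cells and 19.6% (17.1 to 22.3) of Col9a1-high cells. At full depth they were 35.9%, 57.0% and 39.5%, and the cells had medians of 11137, 17835 and 40041 UMIs. These classes are wider than the sets of the same names above. They hold 859, 2363 and 970 cells and include cycling cells, and the Col9a1-high class has any Sfrp2 level. Thinning left out 146, 155 and 42 shallower cells. The intervals cover counting error only, and Mki67 and Top2a are genes of the rule, so the shares are a description.

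A smaller share of cells passed the same rule in the later libraries. At E16.5, P0 and 13w, 551, 100 and 178 cells passed, or 12.1%, 2.501% (2.04 to 3.03) and 2.22% (1.91 to 2.56) of kept cells, with median depths of 10506, 8200 and 5587 UMIs. Stage and library cannot be told apart, because each stage is 1 library, and differences in what the digestion released were not tested. At 13w, 13 of the 178 cells passed with 1 or 2 Sfrp2 UMIs. The proliferation share of Sfrp2-high Col9a1-low cells, thinned, was 27.8%, 11.7% (6.39 to 19.2) and 2.73% (0.566 to 7.76) at E16.5, P0 and 13w. The last rests on 3 of 110 cells.

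**Figure D5:**
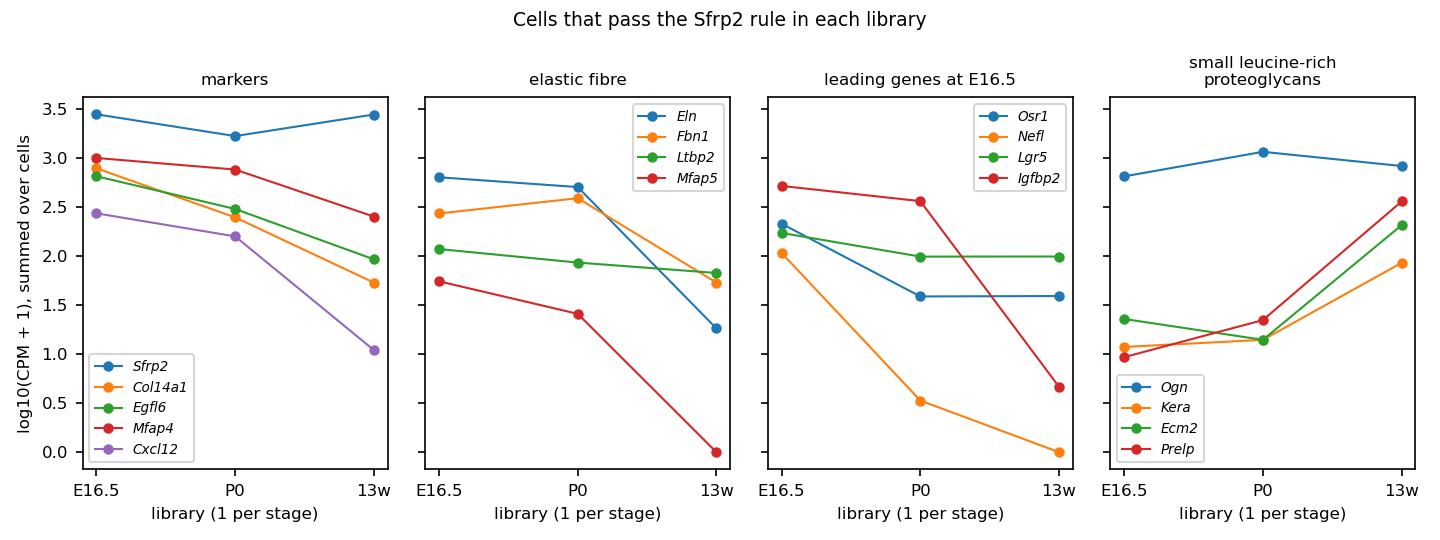
Level of 17 genes in the cells that pass the Sfrp2 rule in the E16.5, P0 and 13w libraries (551, 100 and 178 cells), as log10 of CPM + 1 with raw UMIs summed over cells. Each point is 1 library. Sfrp2, which the rule fixes, stays high, while Cxcl12, Eln, Nefl and Igfbp2 are lowest at 13w and Ecm2 and Prelp highest.

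Most of the leading genes at E16.5 also marked the passing cells at P0. Of the 15 leading genes at E16.5, 12 were measured against the other kept cells of the P0 library and all 12 were at least 2-fold higher (median log2 4.71), where 14.0% of 8405 measured genes were higher and 14.0% lower. Nefl, Nefm and Otor were not measured there. The 5 given markers, Sfrp2 included, summed to 3166 CPM in the passing P0 cells and 95.7 CPM in the other P0 cells. The 10 fibroblast markers differed little, at 11222 and 10013 CPM, and were at 12765 CPM in the Sfrp2-low Col9a1-low non-cycling P0 cells. At 13w, 9 of the 15 were measured and 7 were higher (median 2.26), where 9.88% of 8380 genes were higher and 8.79% lower. Dpt, at 214 CPM in the passing cells and 215 CPM in the other 13w cells, was close in both. Lgr5 was at 98.5 CPM in the passing cells and 0.705 CPM in the other 13w cells.

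At P0 the passing cells had little neurofilament transcript and more of Ccn2, Tnfaip6 and immediate early genes than at E16.5. Of 8722 genes measured, 605 or 6.94% were at least 2-fold higher at P0 and 1353 or 15.5% lower. The higher share was 30.9%, or 42.9% under TMM and 45.0% under median-of-ratios scaling, and these shift the median of -0.21 by 0.15 and 0.18. Both stage comparisons are set against the same E16.5 sum. Nefl, Nefm and Otor were at 2.37, 7.11 and 5.92 CPM at P0, against 107, 115 and 137 CPM at E16.5, and Crabp1, which binds retinoic acid, at 16.6 against 227 CPM. Osr1 was at 37.9 against 214 CPM.

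Genes higher at P0 included Ccn2, a matricellular protein induced by TGF-beta and by load, at 541 CPM at P0 and 17.4 CPM at E16.5 (log2 4.96, 4.64 to 5.29). Tnfaip6, a hyaluronan-binding protein of inflamed tissue, was at 1116 and 88.8 CPM (log2 3.65) and the flow-responsive factor gene Klf2 at 840 and 71.8 CPM. Metallothioneins Mt1 and Mt2 were at 159 and 127 CPM at P0 and 7.79 and 1.81 CPM at E16.5, with 18.7% and 22.4% of the UMIs from 1 cell. Of 21 immediate early and heat shock genes measured, 10 were higher and none lower. Krtdap and Anxa8, genes known from epithelia, were at 115 and 142 CPM at P0, with 23.7% and 18.3% of their UMIs from 1 cell.

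The adult cells that passed the rule had lower elastic fibre and imprinted genes and more of several skeletal and proteoglycan genes. Of 9030 genes measured, 1041 or 11.5% were at least 2-fold higher at 13w than at E16.5 and 1826 or 20.2% lower. The higher share was 36.3%, or 48.0% under TMM and 50.6% under median-of-ratios scaling, and these shift the median of -0.28 by 0.19 and 0.23. Elastic fibre genes were lower, 10 of 16 with none higher (median -1.89). Eln was at 17.3 CPM at 13w and 640 CPM at E16.5 and Fbn2 at 6.38 and 1094 CPM. Of 17 imprinted growth genes, 14 were lower and none higher (median -2.87), with Dlk1 at 3.65 and 561 CPM, Igf2 at 36.5 and 1237 CPM and H19 at 95.7 and 1547 CPM. Of 22 cell cycle genes measured, 18 were lower.

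Markers of other cell types were also higher in the adult cells that passed. The 6 hypertrophic chondrocyte markers summed to 2365 CPM at 13w, of which Spp1 gave 1355 CPM, and to 99.9 CPM at E16.5. The 8 osteoblast markers summed to 997 CPM at 13w and 58.7 CPM at E16.5, the 10 chondrocyte markers to 1183 and 579 CPM and the 5 neutrophil markers to 116 and 4.71 CPM. In the other kept 13w cells the hypertrophic, osteoblast, chondrocyte and neutrophil sums were 9859, 18324, 23676 and 3317 CPM. Of 12 cartilage matrix genes, 8 were higher and 3 lower, and of 10 hypertrophy and bone genes 8 were higher and none lower. The part of these cells or transcripts in the adult values was not tested.

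Most small proteoglycans and some proteases were higher in the adult cells that passed than at E16.5. These ratios compare stages and not cells within the 13w library. In that library Fmod was at 2350 CPM in the passing cells and 3157 CPM in the other kept cells. The 10 fibroblast markers, which include Dcn, summed to 29993 and 32449 CPM, and the 6 joint surface markers, which include Prg4, to 615 and 295 CPM. Of 20 proteases and inhibitors, 12 were at least 2-fold higher at 13w than at E16.5 and 5 lower. Of 10 small leucine-rich proteoglycans, 9 were at least 2-fold higher and none lower (median 3.10), with Dcn (decorin) at 9777 CPM at 13w and 588 CPM at E16.5 and Fmod (fibromodulin) at 2350 and 10.5 CPM. Prg4, the lubricin gene of the joint surface, was at 378 and 2.90 CPM. The collagenase gene Mmp13 and the stromelysin gene Mmp3 were at 771 and 409 CPM at 13w, and each had 2 UMIs at E16.5, giving log2 ratios of 11.05 (9.20 to 14.10) and 10.14 (8.28 to 13.19). Gpx3, an extracellular glutathione peroxidase, was at 2948 and 11.2 CPM. The near-identical osteocalcin genes Bglap and Bglap2, whose reads can be split between them, had no UMI at E16.5 and were at 134 and 183 CPM at 13w. With 3 counts as the floor over the E16.5 sum they were at least 247-fold and 337-fold higher, with 36.7% and 34.8% of the UMIs from 1 cell.

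Among genes lower at 13w, Igfbp2 was at 3.65 CPM at 13w and 522 CPM at E16.5 (log2 -7.16) and the transcription factor gene Sox11 at 1.82 and 179 CPM. Cxcl12 was at 10.0 and 274 CPM and Col14a1 at 52.9 and 790 CPM. Ly6h, Mia and Otor had no UMI at 13w, against 221, 208 and 137 CPM at E16.5, which with 3 counts as the floor over the 13w sum is at least 80.6-fold, 75.9-fold and 50.1-fold lower. Igf1 and Abi3bp were within 2-fold, at 743 and 804 CPM at 13w and 814 and 499 CPM at E16.5.

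Sfrp2 lies beside an antisense gene. Gm26771, which overlaps the end of Sfrp2 on the opposite strand in the GENCODE annotation of GRCm38, was at 260 CPM in the Sfrp2-high cells and 12.1 CPM in the other kept E16.5 cells (log2 4.43), and was named after its value was seen. Its UMIs were counted apart from those of Sfrp2. The labels and file headers do not give how strand was used in counting, and whether UMIs of either gene were assigned to the other was not tested.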

How the data were processed

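Per the labels' protocols, condyles of several mice of 1 age were pooled, and each pool gave 1 library with the 10x 3′ v3.1 kit. The authors deposited raw UMI counts per gene and barcode, limited to called cells. Per the file headers the counts come from Cell Ranger 6.1.2. The submitters' processing notes name GRCm39. From these counts, raw UMIs were summed over the cells of a set and scaled to CPM. A gene was measured at 10 CPM or more in the higher set and called at a ratio of 2 or more in either direction, without the 6 genes of the rule. Each library is 1 sample, so no test was run, and the 95% intervals (exact: from the binomial split of the summed counts for a ratio, and Clopper-Pearson for a share) cover counting error only. Against 0 counts the ratio was taken to a floor of 3 counts over the set.

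The cells, gene lists and comparisons were chosen with earlier results of these data known. Named genes are the 5 markers, those with the largest and smallest ratios at 100 CPM or more (15 and 10 against the other cells, 10 and 5 against Sfrp2-low cells, 8 and 8 for cycling cells, 10 and 10 for each stage), up to 4 genes per list and 8 per cluster at 50 CPM or more. Mitochondrial, ribosomal, haemoglobin, predicted, Xist, Tsix and Y-linked genes were left out of that ranking. Abcc9, Acan, Alpl, Aspn, Cd34, Col11a1, Dcn, Efemp2, Elavl3, Emilin1, Emilin2, Fbln1, Fmod, Fos, Gli1, Gm26771, H19, the haemoglobin genes, Hhip, Igf2, Kcnj8, Ly6a, Mkx, Notch3, Prg4, Ptch1, Runx2, Spp1 and Ucma were named after their values were seen. One gene that the rule picks is not reported here.

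Clusters came from the Leiden method at resolution 0.5 on 2000 variable genes, 20 principal components and 15 neighbours. Doublets were not removed in the values given. Scrublet's automatic threshold marked 5 of 4562 E16.5 cells (0.110%), too few to be used, and an alternative removed the highest scores (181 cells, 5 of them Sfrp2-high). The comparison code was tested on simulated counts. Software was python 3.11.15, numpy 2.4.6, scipy 1.17.1, pandas 2.3.3, scanpy 1.11.5, igraph 0.11.9 and matplotlib 3.10.9. Alternatives covered the Sfrp2, Col9a1 and mitochondrial limits, doublets, depth, cell weights, scaling, the CPM minimum, the cells compared with and the clustering.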

Additional observations from a re-analysis of the deposited data

How the results depend on the processing

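No paired analysis was possible because each stage has 1 library. Without replicates, differences between mice cannot be measured, and depth limits genes under 10 CPM. A single-gene value counted as moved outside its counting interval, and a list median, which has no such interval, past a fixed log2 shift. All 34 list medians moved under TMM and under median-of-ratios scaling, and 23 moved after thinning and 23 with equal cell weights. Of single-gene and list values under the alternatives, 2056 did not move, 845 moved and 4 reversed. The 4 reversed when cells with a UMI of Ptprc, Pecam1, Mki67 or Top2a were left out of the other cells, which removes the cycling cells: Hmmr was then at log2 0.090, Aurkb at 0.55, Bub1 at 0.61 and the median of the cell cycle list at 0.30. Of named genes, 22 of 25 against the other cells, 15 of 15 against Sfrp2-low cells, 8 of 16 for cycling cells and 20 of 20 at each later stage were past 2-fold in every alternative, and the other 3 against the other cells were Stfa1, S100a9 and Lyz2.

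The share of Sfrp2-high cells at E16.5 was 9.97% with a Sfrp2 threshold of 10, 13.2% with 2.5, 10.5% with no Col9a1 UMI allowed and 10.8% with a mitochondrial limit of 5%. At P0 the share was 1.65% with a threshold of 10, 3.10% with 2.5 and 1.83% with no Col9a1 UMI. At 13w it was 1.57% and 2.77% with these thresholds, 1.43% with the mitochondrial limit of 5% and 1.58% after thinning. Against the other E16.5 cells, 707 genes were higher with TMM and 701 with median-of-ratios scaling. With a minimum of 3 counts only, 4248 were higher and 1862 lower, and at 50 CPM 371 and 323, as more or fewer genes were then tested. Against Sfrp2-low cells, 543 were lower with median-of-ratios scaling, 2912 higher and 1158 lower with 3 counts, and 290 and 123 at 50 CPM. For cycling cells, 711 were higher and 207 lower after thinning, 70 lower with equal cell weights, 1176 higher and 859 lower with 3 counts, and 165 and 2 at 50 CPM. P0 over E16.5 gave 1283 higher and 2257 lower with 3 counts and 249 and 302 at 50 CPM, and 13w over E16.5 gave 1698 and 2788, and 477 and 564. For the scaling, thinning and weighting alternatives the cause was not tested.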
